A study of Zea mays with 6 samples.

Results

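The genes described here are cab48 (GRMZM2G120619), cab-m1 (GRMZM2G351977) and cab-m9 (GRMZM2G155216), 3 nuclear genes of maize (Zea mays) that encode chlorophyll a/b-binding proteins of the photosynthetic antenna. They were taken by gene ID from the 39628 gene models of the deposited tables, and all 3 passed the filter on low counts, as did 18702 gene models in all. They were picked because earlier results on these libraries showed a genotype difference in cab48 and a difference between libraries in cab-m1 and cab-m9. The levels and fold changes of the 3 genes are therefore given as a description, without a test. Leaves of field-grown plants were sampled at leaf stage 6 from the inbred line Q319 (wild type) and from a transgenic line called L100, with 3 RNA sequencing libraries per line. The labels name neither the transgene nor its promoter, so no targeted gene could be checked, and they do not say whether L100 is 1 transformation event or whether the libraries came from separate plants. P-values for other genes below thus measure the spread between these libraries, which may be technical.

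Chlorophyll a/b-binding proteins surround the photosystems in the thylakoid membrane, where they hold chlorophyll and carotenoids and pass absorbed light energy to the reaction centres. The trimeric light-harvesting complex of photosystem II is built from the most abundant of them, and minor monomeric proteins (CP29, CP26 and CP24) connect it to the core. The genes form a family with similar coding sequences, and their transcripts are known to respond to light, to the circadian clock and to the state of the chloroplast. In maize, cab-m1 has been described as expressed mainly in mesophyll cells. The name table used here lists lhcb3 as a synonym of cab-m9 and LHCP as a synonym of cab48. Because family members resemble each other, a count of any of them may include reads of a close copy, and the sources used here do not say how such reads were assigned.

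Total counts ranged from 6458248 to 9922468 per library. Wild type libraries differed from each other more than L100 libraries did, with a biological coefficient of variation of 0.497 within wild type and 0.254 within L100. Wild type replicate 3 stood apart, and the coefficient of the other wild type libraries was 0.441. The log2 fold changes and variance shares of the 3 genes and the group differences in the ratios of cab48 are given with and without it. Correlations and fold changes of single other genes are given with all libraries only. The leaf label was checked with marker genes. Among 6 matched genes that mark other tissues, 2 (o2 and FL2) had no count in any library, and their summed level was 0.616 to 1.46 CPM in 5 libraries and 7.04 CPM in wild type replicate 3. In that library rth3, a gene known from root hairs, had 6.79 CPM. Mesophyll markers (pep1, pdk1, mdh6 and ppt1) summed to between 46917 and 76360 CPM over the wild type libraries and to between 83642 and 101294 CPM over those of L100. Most of this sum was pep1 and pdk1, whose groups did not overlap, as held for 16.2% of all tested genes. None of the 4 was called by edgeR (smallest adjusted p = 0.664). Bundle sheath markers, named below, summed to between 14134 and 22992 CPM in wild type and to between 21501 and 27436 CPM in L100.

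Transcripts of cab48 were lower in every wild type library than in any L100 library. In CPM (counts scaled to a common library size, with TMM factors), wild type replicates 1 to 3 had 228, 122 and 124 CPM, from 2218, 953 and 1479 counts. L100 replicates 1 to 3 had 2006, 885 and 1129 CPM, from 14335, 5451 and 7021 counts. The groups did not overlap, which with L100 higher held for 7.69% of all tested genes. As this gene was picked with its genotype difference known, the lack of overlap is no independent result. The lowest L100 library was 3.89-fold above the highest wild type library. The means were 158 ± 60.6 and 1340 ± 589 CPM (SD, n = 3 per group), a fold of 8.49 and a log2 fold change of 3.09 ± 0.45 (SE, edgeR). As a share of all counts, cab48 took 0.0115% (95% exact binomial interval 0.0107 to 0.0122%) in wild type replicate 2, its lowest library, and 0.190% (0.187 to 0.193%) in L100 replicate 1, its highest. By rank of counts within a library it stood between 463 and 1165 in wild type and between 62 and 151 in L100.

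The abundant antenna genes cab-m1 and cab-m9 showed another pattern, with the lowest level of both in a single wild type library. For cab-m1, wild type replicates 1 to 3 had 5017, 4814 and 383 CPM, and L100 replicates 1 to 3 had 6756, 4445 and 4444 CPM. For cab-m9, the wild type values were 8930, 6815 and 786 CPM and the L100 values 10597, 6159 and 6437 CPM. In both genes wild type replicates 1 and 2 lay inside the range of L100, and wild type replicate 3 lay far below all other libraries. It was 12.8-fold below the mean of wild type replicates 1 and 2 for cab-m1 and 10.02-fold below it for cab-m9. For cab48 the same comparison gave 1.41-fold, and wild type replicate 2 was as low as wild type replicate 3.

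**Figure D1:**
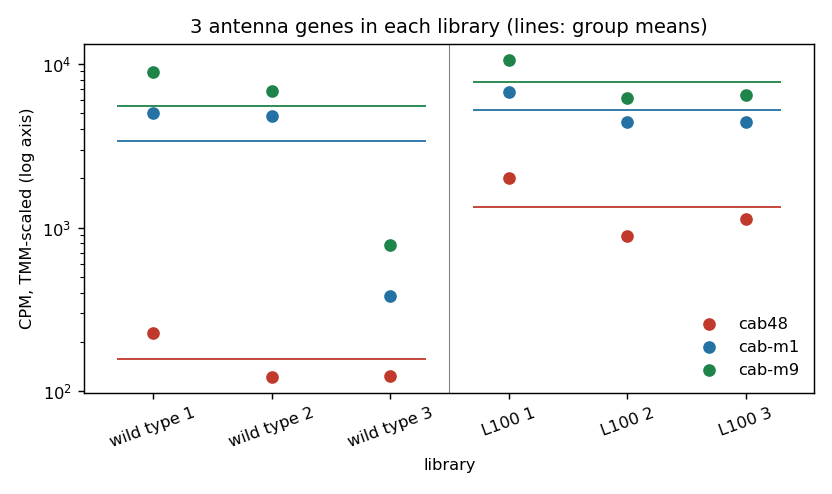
Level of cab48, cab-m1 and cab-m9 in each library, in TMM-scaled CPM on a log axis; points are libraries and horizontal lines are arithmetic group means (n = 3). All 3 L100 libraries of cab48 (885 to 2006 CPM) sit above the wild type libraries (122 to 228 CPM), whereas cab-m1 and cab-m9 are low in wild type replicate 3 alone.

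The genotype difference of cab-m1 and cab-m9 was smaller than the spread within wild type. The wild type mean of cab-m1 was 3405 ± 2619 CPM and the L100 mean 5215 ± 1334 CPM, a log2 fold change of 0.62 ± 0.79 (SE, edgeR). Means of cab-m9 were 5510 ± 4226 and 7731 ± 2486 CPM, a log2 fold change of 0.49 ± 0.75. Without wild type replicate 3 these log2 fold changes were 0.08 and -0.03, and that of cab48 was 2.94. As differences of mean log2 values, with all libraries, they were 1.27 for cab-m1 and 1.03 for cab-m9 in limma-voom, since a low library weighs more on a mean of logs than on the group mean that edgeR fits. The same change of tool left cab48 at 3.06.

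The variance of log2 CPM over the 6 libraries was therefore split differently in these genes. For cab48, 91.8% of it lay between the genotypes, and 89.96% did so without wild type replicate 3. For cab-m1 the share was 21.03%, and 1.53% without that library. For cab-m9 it was 17.4%, and 0.904% without that library. The median over all 18702 tested genes was 17.6%, close to the shares of cab-m1 and cab-m9. Counting error was small beside these differences, with a Poisson coefficient of variation of at most 3.24% for cab48, against 38.4% between wild type libraries and 43.97% between L100 libraries.

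Within a genotype, the highest and lowest libraries of cab-m1 differed 13.1-fold in wild type and 1.52-fold in L100. For cab-m9 they differed 11.4-fold and 1.72-fold, and for cab48 1.87-fold and 2.27-fold. In L100, replicate 1 was the highest library of all 3 genes. Among the 109 genes with a mean of at least 1000 CPM, the median range on the log2 scale was 0.98 in wild type and 0.50 in L100, and 7 genes, cab-m1 among them, had a wild type range at least as wide as the 3.71 of cab-m1. The wild type range of cab48 was 0.90, close to the median of 0.96 for the 1413 genes with a mean of at least 100 CPM, and its L100 range of 1.18 was above their median of 0.46.

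**Figure D2:**
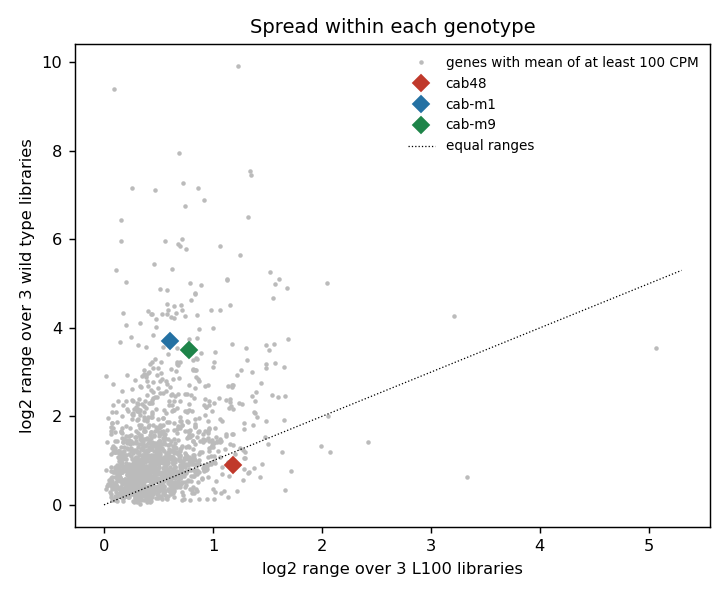
Range (highest minus lowest library, log2 scale) over the 3 wild type libraries against that over the 3 L100 libraries, for the 1413 genes with a mean of at least 100 CPM (grey) and the 3 antenna genes. The genes cab-m1 and cab-m9 lie high above the line of equal ranges, and cab48 lies below it.

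A ratio of counts within a library does not depend on the scaling between libraries. In wild type replicates 1 to 3, counts of cab48 were 4.54%, 2.53% and 32.4% of those of cab-m1. The 3 L100 libraries had 29.7%, 19.9% and 25.4%. Wild type replicate 3 thus had the highest ratio of all, with cab-m1 low and cab48 not high in that library. Against cab-m9, cab48 stood at 2.55%, 1.79% and 15.8% in wild type and at 18.9%, 14.4% and 17.5% in L100. The groups overlapped in both ratios, while both other wild type libraries lay below every L100 library. The mean log2 ratio of cab48 to cab-m1 was -3.80 ± 1.93 in wild type and -2.02 ± 0.29 in L100 (SD, n = 3 per group), a difference of 1.78, or 3.43-fold. Without wild type replicate 3 the difference was 2.86, or 7.28-fold. For cab48 to cab-m9 the difference was 2.02, and 2.98 without that library.

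By contrast, cab-m1 and cab-m9 kept a narrow ratio to each other while both changed more than 10-fold. The wild type libraries had 1.78, 1.42 and 2.05 counts of cab-m9 for each count of cab-m1, and the L100 libraries 1.57, 1.39 and 1.45. The mean log2 ratio was 0.79 ± 0.27 in wild type and 0.55 ± 0.09 in L100. The highest of these ratios was that of wild type replicate 3.

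**Figure D3:**
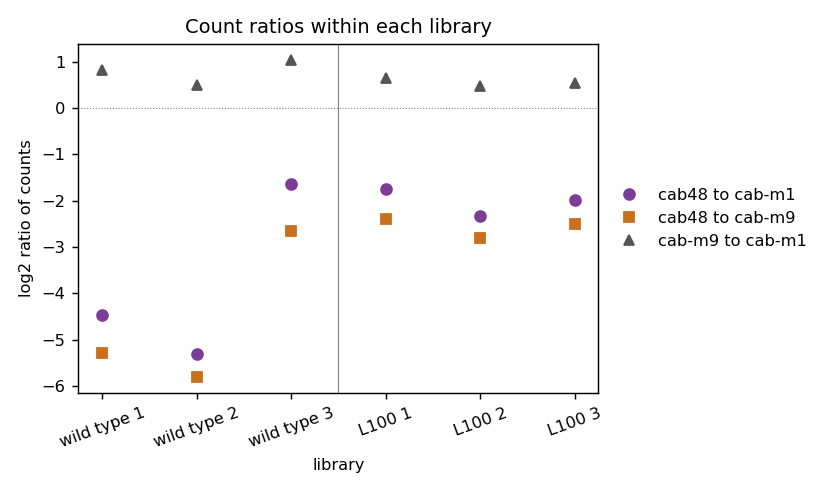
Log2 ratio of counts between pairs of the 3 antenna genes within each library; each point is 1 library. The ratios of cab48 to cab-m1 and to cab-m9 are low in wild type replicates 1 and 2, and in wild type replicate 3 they are near those of L100; the ratio of cab-m9 to cab-m1 stays between 0.47 and 1.04.

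Levels can be compared between genes only per length. The deposited tables list 795 bases for cab48 and cab-m1 and 909 bases for cab-m9. On CPM per listed kilobase, the order was cab-m9, cab-m1, cab48 in each of the 6 libraries, with 9824, 6311 and 286.5 in wild type replicate 1 and 7082, 5590 and 1421 in L100 replicate 3. The authors' FPKM gave the same order. In FPKM, cab-m9 exceeded cab-m1 by 1.11 to 1.61 times within a library, a smaller gap than in counts. Their FPKM means overlapped within the SD, at 4670 ± 3559 for cab-m9 and 3699 ± 2843 for cab-m1 over the wild type libraries and at 6633 ± 2045 and 5601 ± 1370 over the L100 libraries (n = 3 each). The authors' FPKM did not follow the listed length alone. The number of scaled fragments per unit of FPKM was 9.73 for cab48 in every library, but between 7.09 and 7.35 for cab-m1, which has the same listed length, and between 8.99 and 9.20 for cab-m9. On this scale the difference of mean log2(FPKM + 1) for cab48 was 3.06.

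Only 4 other genes carried a cab or lhc symbol in the name table, so the family is covered in part. A further gene, psb29, has the synonym cp29 but no such symbol. It is counted with the light reaction genes below and not in the family counts, the median or the pool. They were Cab-m7 (GRMZM2G402936, with lhcb7 and LHCP as synonyms) and the genes lhcb4 (GRMZM2G103101), lhcb5 (GRMZM2G149428) and lhcb6 (GRMZM2G092427), whose symbols are those of the minor proteins CP29, CP26 and CP24. None of the 4 passed edgeR's test at an adjusted threshold of 0.05 (smallest adjusted p = 0.787), none had an unadjusted p under 0.05, and none was called by DESeq2 or limma-voom. Among all tested genes 0.834% were called, 0.519% as higher and 0.315% as lower in L100. Of the genes cab48, cab-m1 and cab-m9, cab48 was among those called higher. It was picked with its genotype difference known, so this call is no independent test of it. The median log2 fold change of the 4 was 0.46, against -0.03 over all tested genes, and 0.07 without wild type replicate 3.

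The low level in wild type replicate 3 was shared by most of these genes. Cab-m7 stood at 6424, 7378 and 747 CPM in wild type and at 8068, 8949 and 6458 CPM in those of L100, and its log2 difference between wild type replicate 3 and the mean of the other wild type libraries was -3.20. For lhcb5 the wild type values were 2945, 3441 and 802 CPM, with 2462 to 4168 CPM in L100. For lhcb6 they were 3115, 2845 and 986 CPM, with 2229 to 3798 CPM in L100. The exception was lhcb4, with wild type levels of 703, 614 and 682 CPM and L100 levels of 522 to 750 CPM, where wild type replicate 3 lay between the other wild type libraries. The sum of the mesophyll markers moved otherwise: it was 60807 CPM in wild type replicate 3, between the 46917 and 76360 CPM of wild type replicates 1 and 2. Singly they differed: pdk1 was lowest in wild type replicate 3 (29014 CPM, against 29349 and 44076 CPM), and mdh6 was highest there (3977 CPM, against 2060 and 3024 CPM). Levels of pep1 and ppt1 lay between those of the other wild type libraries. Bundle sheath markers (me3, rca1 and a pair of rbcS genes) summed to 14134 CPM there, against 22315 and 22992 CPM in wild type replicates 1 and 2. Whether these markers have a part in the antenna differences was not tested, and in RNA of whole leaf tissue fewer cells of a type and less RNA per cell cannot be told apart.

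Counts of the 7 genes with a cab or lhc symbol together made up 3.004%, 2.45% and 0.543% of all counts in the wild type libraries, and 3.398%, 2.36% and 2.36% in those of L100. The share of cab48 in this pool was 0.832%, 0.468% and 2.75% in wild type and 5.597%, 3.22% and 4.61% in L100. The groups did not overlap in this share, and wild type replicate 3 was the nearest to L100. In the authors' FPKM it was 0.733%, 0.414% and 2.415% in wild type and 4.979%, 2.905% and 4.043% in L100. By counts, not divided by length, the gene ranked last of the 7 in each wild type library and above lhcb4 in each L100 library. Also by counts, cab-m9 made up between 17.4% and 32.6% of the pool over the 6 libraries and cab-m1 between 8.49% and 18.9%, with the lowest share of both in wild type replicate 3.

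**Figure D4:**
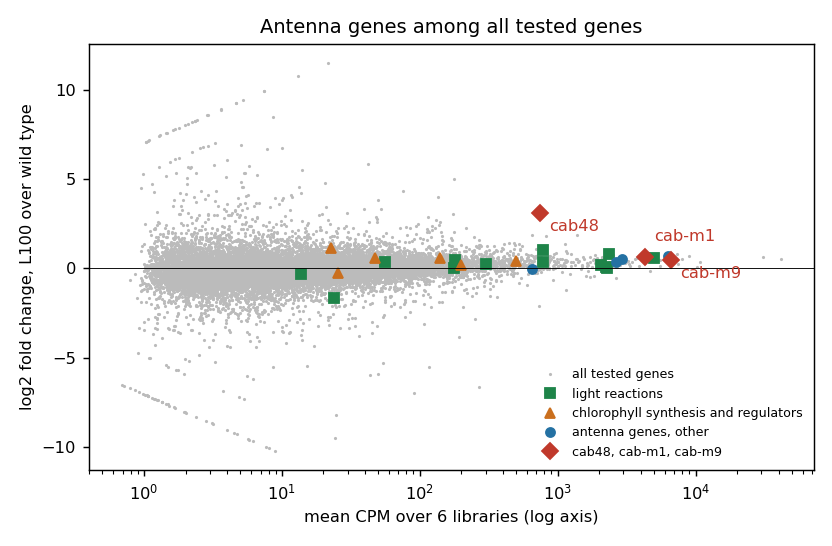
Log2 fold change of L100 over wild type (edgeR) against mean CPM over the 6 libraries on a log axis, one grey point per tested gene, with the antenna, light reaction and chlorophyll synthesis genes that carry a symbol marked. cab48 lies at 3.09, while the 4 other antenna genes lie between -0.05 and 0.69.

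Among the 1413 genes with a mean of at least 100 CPM, 7 changed at least as much as cab48 in either direction, itself included. As cab48 was picked for its genotype difference, this high place follows from the choice. Genes on the light reaction list gave no call. The list was matched by symbol, so genes with an fdx symbol are counted whether or not they act in photosynthesis. Of 14 light reaction genes with a symbol 13 were tested, as OEE3 (GRMZM2G021617) had no count in any library. None of the 13 was called by edgeR, DESeq2 or limma-voom (smallest edgeR adjusted p = 0.456), and 1 had an unadjusted p under 0.05 in edgeR, as did 10.04% of all tested genes. Of the 13, 11 had a positive and 2 a negative log2 fold change, where 47.56% of all tested genes had a positive one. The median was 0.22, against -0.03 over all tested genes. The 3 with the highest mean CPM over all 6 libraries, not divided by length, were psb29 (GRMZM2G033885, synonym cp29), psbs1 (GRMZM2G077333), the subunit needed for the dissipation of excess light energy, and psaN (GRMZM2G080107), a photosystem I subunit. The wild type and L100 means of psb29 were 3958 ± 1575 and 5968 ± 757 CPM, those of psbs1 1711 ± 1029 and 2976 ± 530 CPM, and those of psaN 2231 ± 558 and 2300 ± 521 CPM. The photosystem I gene psad1 (GRMZM2G024150) was the only member of this list whose groups did not overlap, with wild type libraries at 331, 840 and 394 CPM and L100 libraries at 1021, 1048 and 1080 CPM (edgeR adjusted p = 0.456); over all tested genes, groups did not overlap in 16.2%. In wild type replicate 3, 8 of the 13 genes were lower than in the mean of the other wild type libraries, with a median of -0.59. Over all tested genes, 9230 of 18702 were lower there, with a median of 0.01. The values ran from -1.79 in fdx3 to 3.41 in FDX6, named here after their values were seen.

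The list of chlorophyll synthesis genes and regulators was matched by 6 symbols, among them elm1, which is a gene of bilin synthesis. None of the 6 was called by edgeR, DESeq2 or limma-voom. The smallest edgeR adjusted p was 0.255, that of elm1. An unadjusted edgeR p under 0.05 was found for 1 gene, against 10.04% of all tested genes. The log2 fold change was positive for 5 of the 6, where it was positive for 47.56% of all tested genes. Its median was 0.51, or 0.17 without wild type replicate 3. ChlI (GRMZM2G419806, also oy1), a subunit of the magnesium chelatase that commits porphyrin to chlorophyll, had a wild type mean of 424.5 ± 101 CPM and an L100 mean of 573 ± 69.9 CPM. The gene les22 (GRMZM2G044074), for uroporphyrinogen decarboxylase, had 184 ± 104 and 212 ± 36.5 CPM. The transcription factor gene glk1 (GRMZM2G026833), a relative of golden2 that promotes chloroplast development in mesophyll cells, followed the abundant antenna genes over libraries. Its levels were 135.5, 189 and 15.3 CPM for the wild type libraries, in the order of their numbers, and 157, 198 and 152 CPM for those of L100. The bilin synthesis gene elm1 (GRMZM5G861678) and DVR (GRMZM2G063048), for divinyl reductase, were the members without overlap between groups, 2 of 6 where the share over all tested genes was 16.2%. Wild type libraries of elm1 had 8.73, 20.1 and 13.8 CPM, and its L100 libraries 28.7, 30.5 and 33.8 CPM. For DVR the wild type values were 36.9, 43.8 and 31.8 CPM and the L100 values 52.05, 44.8 and 73.03 CPM. Their edgeR adjusted p were 0.255 and 0.532.

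**Figure D5:**
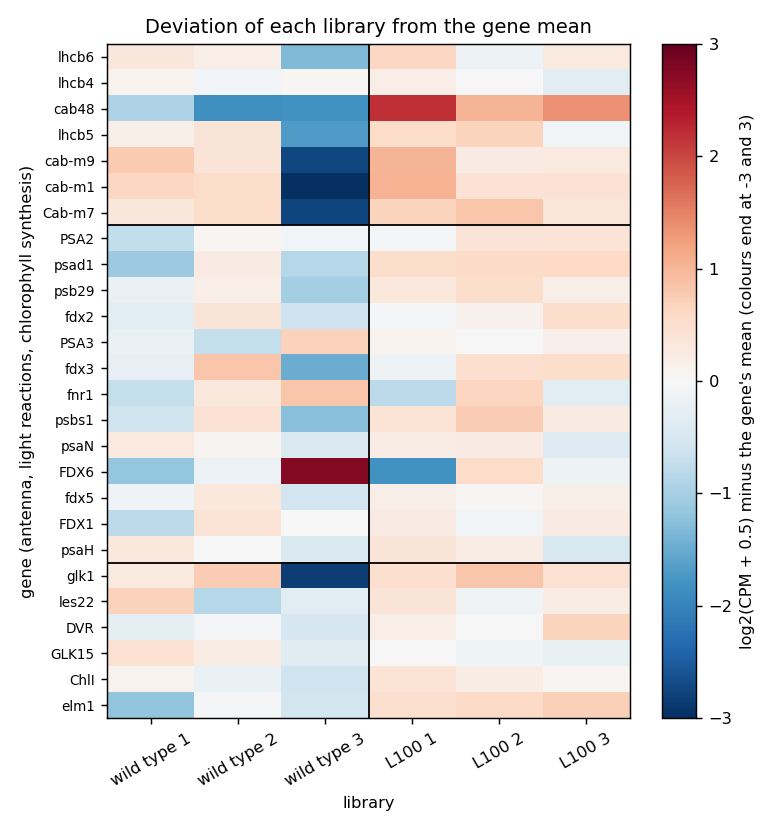
Deviation of log2(CPM + 0.5) in each library from the mean of the gene over the 6 libraries, for the tested antenna (top), light reaction (middle) and chlorophyll synthesis genes (bottom); red is above and blue below the mean, and colours end at -3 and 3. In wild type replicate 3 cab-m1, cab-m9, Cab-m7 and glk1 are the deepest blue, while cab48 is blue in all 3 wild type libraries and red in all 3 L100 libraries.

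The genes most like each antenna gene were found by Pearson correlation of log2(CPM + 0.5) over the 6 libraries, among 13939 other genes with a mean of at least 5 CPM. These correlations are a description over 6 points that share the same libraries and scaling, and with so many genes high values are common. The correlation of cab-m1 with cab-m9 was 0.995, that of cab48 with cab-m1 was 0.549, and that of cab48 with cab-m9 was 0.536. Within the antenna, light reaction and chlorophyll lists, the nearest to cab-m1 after cab-m9 were Cab-m7 (0.984), glk1 (0.973), lhcb6 (0.966) and lhcb5 (0.956). The nearest to cab-m9 after cab-m1 were lhcb6 (0.977), Cab-m7 (0.964), glk1 (0.946) and lhcb5 (0.937). No gene with a cab or lhc symbol was among the 5 nearest to cab48, which were ChlI (0.821), elm1 (0.733), DVR (0.731), psad1 (0.698) and psb29 (0.641), the gene with the synonym cp29. Among all genes with a symbol, the nearest to cab48 were SEC14p (GRMZM2G704053, 0.979), asn3 (GRMZM2G053669, 0.978), a gene named deaminase (GRMZM2G137724, 0.952), kan1 (GRMZM2G056400, 0.947) and GB1 (GRMZM2G062531, 0.934). The nearest to both cab-m1 and cab-m9 included BZ-1 (GRMZM2G117851), BCH1 (GRMZM2G164318) and BM1 (GRMZM5G844562), with correlations between 0.989 and 0.995. The list was completed by PP2C25 (GRMZM2G155991, 0.994) for cab-m1 and by mpk6 (GRMZM2G089484, 0.9896) for cab-m9.

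No gene of the antenna, light reaction or chlorophyll lists differed as much between the genotypes as cab48; their log2 fold changes ran from -1.65 in FDX6 to 1.13 in elm1. The value of FDX6 (SE 1.03) rests on wild type replicate 3, with 90.99 CPM against 5.65 and 11.6 CPM in wild type replicates 1 and 2. Its L100 libraries had 3.36 to 19.5 CPM. GB1 and asn3 had the largest log2 fold changes among the genes just named, 2.45 and 4.10. Their means were 42.9 ± 35.7 and 234 ± 114 CPM for GB1 and 1.28 ± 1.74 and 22.03 ± 17.97 CPM for asn3, in wild type and L100. Neither passed edgeR's test over all genes (adjusted p = 0.236 and 0.167).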

How the data were processed

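Per the labels, RNA was taken from frozen leaves with Trizol and sequenced from Illumina libraries. The submitters' processing notes name Bowtie 0.12.2 and the build B73 RefGen_v3; no counting tool is stated in these sources. Each table deposited by the authors holds, per the file headers, an estimated count per gene model, an FPKM value and scaled fragments, a signal that is the count multiplied by a factor of the library. Deposited estimated counts were rounded; 0.300% of them were not whole (tolerance 0.001). The comparison used edgeR 4.0.16 in R 4.3.3 (quasi-likelihood test, TMM scaling, filterByExpr, no block) over 18702 genes with Benjamini-Hochberg adjustment. DESeq2 1.42.0 and limma 3.58.1 were alternatives. SE was obtained from the log2 fold change and the F statistic. Intervals are exact binomial (95%) and cover counting error only; a floor of 3 counts is 0.302 to 0.465 CPM. No pair of libraries within a group was a repeat (chi-square per gene 13.2 to 109.1, where sampling noise gives about 1). Pairs across the groups were not checked.

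Names came from the RefSeq gene table of a later assembly (Zm-B73-REFERENCE-NAM-5.0), so no coordinates are given; 18254 gene IDs matched 1 record, and 2559 had a symbol. Protein and promoter sequences were not used here. The genes and lists were chosen with earlier results of these data known. Symbols belonging to other genes were left out of the lists by function, and 1 marker gene is not reported here. Genes named are all members of the antenna list, the 3 with the highest mean CPM of each other list, and the 5 nearest to each antenna gene by correlation; others are named as chosen after their values were seen.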

Additional observations from a re-analysis of the deposited data

How the results depend on the processing

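The log2 fold change of cab48 ranged from 2.68 to 3.45 with 1 library left out and from 3.04 to 3.10 with other tools, scalings and filters, the replicate block (3.06) or the authors' FPKM (3.06). With 1 library left out, cab-m1 ranged from 0.08 to 1.004 and cab-m9 from -0.03 to 1.02, both lowest without wild type replicate 3; with the replicate block they were 1.18 and 0.97. The ratio of cab48 to cab-m1 differed by 1.03 to 2.86 (log2) and that to cab-m9 by 1.41 to 2.98, lowest without wild type replicate 2. The count of called genes, 156, was 570 with DESeq2, 33 with the stricter filter and 5 with the replicate number as a block; with 1 library left out it ranged from 0 (without L100 replicate 2 or 3, where 1295 and 1282 genes had an unadjusted p under 0.05) to 222. The call of cab48 was lost without any 1 of the L100 libraries, with the stricter filter and with the replicate block. No other antenna, light reaction or chlorophyll gene on the lists was called in any of these settings. With 1 library left out, the median log2 fold change ranged from 0.07 to 0.74 for the other antenna genes, from 0.21 to 0.50 for light reaction genes (highest without wild type replicate 2) and from 0.17 to 0.67 for chlorophyll genes. Deviations from the group mean correlated at 0.398, 0.355 and 0.014 between samples of the same number, 1 to 3. Wild type replicate 1 with L100 replicate 2 gave -0.312, and wild type replicate 2 with L100 replicate 1 gave -0.416. The other pairs of unlike number lay between -0.096 and 0.072. Whether samples of the same number share more than the number was not tested. Of 167 alternative values, 161 stayed within the spread between replicates or within 1.5 times the count. That spread was wide for cab-m1 and cab-m9 (1.52 and 1.39 on the log2 scale), so large shifts of these genes also stayed within it. The values include the counts of called list genes, which were 0 in every setting, and leave out the call of cab48.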

Other observations

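The neighbours of the 3 antenna genes, by order on the later assembly, were looked at after the other values had been seen. Each gene has 5 matched gene models on either side. Of the 10 around cab48, 8 were tested, and 7 of these were higher in L100 (47.56% of all tested genes were higher), with log2 fold changes from -0.34 to 1.30 and a median of 0.97. The median was 0.67 without wild type replicate 3. Around cab-m1, 3 of 8 were higher (median -0.08), and around cab-m9, 7 of 10 (median 0.10). None of these neighbours was called by edgeR, DESeq2 or limma-voom. An unadjusted edgeR p under 0.05 was found for 2 neighbours of cab48, 2 of cab-m1 and 0 of cab-m9, and for 10.04% of all tested genes.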
